A study of Mus musculus with 10 samples.

Results

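Eµ, the enhancer within the antibody heavy chain locus Igh, lies in the intron between the J segments and the first constant gene. Small RNA of Eµ-deficient B-cells was set against that of wt B-cells, in resting and in LPS-stimulated cells, over every row of the deposited count table. The comparison used 6 of the 10 libraries of the series, which are the 2 libraries of Eµ-deficient cells and the 4 libraries of wt cells. The table has 6968 features, and 4438 of them passed a filter on low counts and were tested.

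The Eµ-deficient mice lacked Eµ together with its matrix attachment regions in every cell, and, per the methods of the study, they and the wt mice were young adults of both sexes on the same inbred background. B-cells were obtained as CD43- spleen cells, a depletion that leaves mature B-cells but also whatever else in the spleen lacks CD43. Cells pooled from 2 mice were unstimulated (NS, resting) or were cultured for 2 days with 5 µg/ml of the bacterial lipopolysaccharide LPS (S, stimulated). The labels give 2 days of culture for the resting cells too, whereas the methods describe them as taken before stimulation, and these accounts were not reconciled here. Wt cells had 2 libraries in each condition and Eµ-deficient cells had 1, so genotype could be tested only across both conditions, and nothing in the labels says that libraries came from separate cultures. The p-values therefore measure only the spread between these libraries. The mice without Eµ are known to have few follicular B-cells, and in bulk RNA fewer cells of a type and less RNA per cell cannot be told apart.

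The table mixes RNAs of very different origin. MicroRNAs are short guides that repress messenger RNAs through their seed, bases 2 to 8 from the 5′ end. The small nucleolar RNAs (snoRNAs) are mostly released from introns of ribosomal protein and other housekeeping genes, and guide the methylation (box C/D type, usually the shorter ones) or pseudouridylation (box H/ACA type, usually the longer ones) of ribosomal RNA. Transfer RNAs (tRNAs) carry amino acids to the ribosome, and in a small RNA library they appear as fragments. Products of at most 160 nt were selected, so longer RNAs, such as Rmrp of 271 bases, were also counted as fragments. Whether counts on shorter snoRNA and snRNA rows come from whole RNAs or from fragments was not tested. The piRNA clusters of the table are long genomic intervals that were annotated for their germline piRNAs. In B-cells, counts in them come from any short RNA that maps inside.

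Most snoRNAs called in the fit used here are short, and 5 of them are shown here from GENCODE M21 (GRCm38, positions counted from 1) because the comparison turns on them (the leading 3 at 100 CPM or more, the most abundant called one and the one that fell). Snord72 lies at chr15:5118404-5118484 on the plus strand in an intron of Rpl37, and Snord4a at chr11:78181686-78181756 on the minus strand in an intron of Rpl23a, both genes of ribosomal proteins. Gm24123 lies at chrX:93164902-93164984 on the plus strand, Snord80 at chr1:161037601-161037681 on the plus strand in the non-coding host gene Gas5, and Snord123, 1 of the 2 features that fell, at chr15:32241853-32241923 on the minus strand in an intron of Snhg18. Capitals mark the first TGATGA (around box C) and the last CTGA (box D) found on the strand of the gene, searched as these exact letters. TGATGA was not found in Snord72 and CTGA was not found in Gm24123.
Snord72: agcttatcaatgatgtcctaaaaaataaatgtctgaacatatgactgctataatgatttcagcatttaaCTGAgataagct
Gm24123: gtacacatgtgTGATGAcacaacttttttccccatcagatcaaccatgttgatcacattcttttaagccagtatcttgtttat
Snord4a: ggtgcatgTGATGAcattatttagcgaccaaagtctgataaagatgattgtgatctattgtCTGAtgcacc
Snord80: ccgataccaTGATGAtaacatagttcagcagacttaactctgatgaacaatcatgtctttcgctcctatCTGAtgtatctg
Snord123: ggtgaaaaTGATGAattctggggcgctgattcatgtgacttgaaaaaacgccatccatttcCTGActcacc

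MicroRNAs that the results turn on are shown from the RefSeq table (GRCm38.p6), with the seed in capitals. The first 6 lie together on chromosome 12 between Dlk1 and Dio3, on the chromosome that also carries Igh, and each has a seed of its own. The next 4 form a pair of families that are known from stem cells and share the seed CCCUGAG (miR-125) or ACCCGUA (miR-99 and miR-100). Of these 4, miR-125a-5p passed and the others are shown for their seed. The last, miR-5121, is the microRNA that fell.
miR-493-5p: uUGUACAUgguaggcuuuc
miR-654-3p: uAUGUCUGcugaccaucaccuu
miR-370-3p: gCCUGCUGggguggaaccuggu
miR-409-3p: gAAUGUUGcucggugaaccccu
miR-369-3p: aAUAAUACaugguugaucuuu
miR-127-3p: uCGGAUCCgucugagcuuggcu
miR-125a-5p: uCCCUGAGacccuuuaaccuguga
miR-125b-5p: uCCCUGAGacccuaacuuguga
miR-99a-5p: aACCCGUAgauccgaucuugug
miR-100-5p: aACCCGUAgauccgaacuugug
miR-5121: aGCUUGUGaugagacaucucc

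The libraries held between 3482540.0 counts (wt NS replicate 2) and 18144016 counts (Eµ-deficient S). The resting wt replicates differed from each other more than the stimulated ones, with an SD of their log2 difference of 1.71 against 0.985 over the tested features, and the biological coefficient of variation of the fit was 58.5%. Same-numbered resting libraries of wt and 3′RR-deficient cells deviated together (r = 0.64 over 4554 features for the difference of replicate 1 and 2), the stimulated ones less so (r = 0.28), and those of different conditions did not (r = -0.07 for wt). Both Eµ-deficient libraries carry the number 1.

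MicroRNAs took a smaller part of the Eµ-deficient libraries, and snoRNAs and intervals annotated as piRNA clusters a larger one. MicroRNAs made up 73.0% ± 12.9 (SD, n = 2) of all counts in resting and 71.4% ± 4.11 (n = 2) in stimulated wt cells, against 60.2% and 51.4% in the Eµ-deficient libraries. The snoRNA share was 5.90% ± 3.78 and 4.33% ± 0.505 in wt cells, against 10.5% (95% Wilson interval 10.4 to 10.5) and 9.61% (9.60 to 9.63). Clusters took 11.5% ± 4.43 and 11.5% ± 1.46 in wt cells, against 17.5% and 17.6%. For tRNA the wt libraries ranged from 6.11% to 11.96% at rest, which encloses the Eµ-deficient value of 10.9%, while the stimulated Eµ-deficient library at 20.5% lay above both wt values of 14.02% and 11.1%. Intervals cover counting error only. With 1 Eµ-deficient library per condition, an exact test over libraries has 9 assignments and cannot give a one-sided p below 0.111, so no share was tested.

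**Figure D1:**
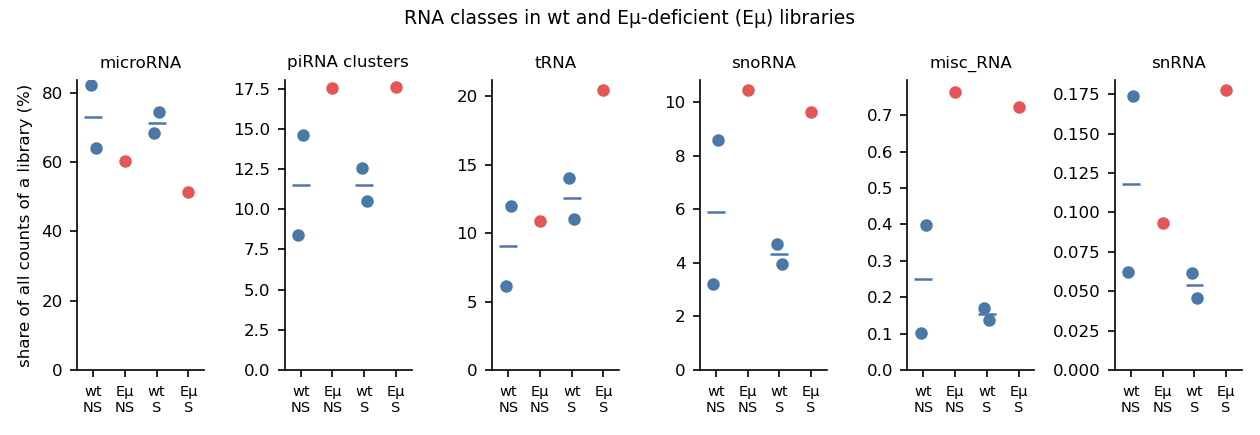
Share of all counts of a library (%) taken by 6 RNA classes, each panel with its own axis from 0. Points are libraries (blue, wt, red, Eµ-deficient, NS, resting, S, LPS-stimulated) and lines are wt means. The snoRNA, piRNA cluster and misc_RNA shares of both Eµ-deficient libraries lie above all 4 wt libraries, and the microRNA shares below.

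Across both conditions, 82 features passed an adjusted p of 0.05 (edgeR quasi-likelihood F-test with stimulation as an additive term, Benjamini-Hochberg over all 4438), which is 1.85% of those tested. Of these, 80 rose in Eµ-deficient cells (1.80%) and 2 fell (0.0451%). All 80 lay above both wt libraries in each condition and both that fell lay below, which follows in large part from the call on the same libraries. Of all tested features, 13.2% lay above and 16.9% below. Of the 82, 74 pass the filter on the wt libraries alone. The rest entered the test only with the Eµ-deficient libraries, so their adjusted p-values are not read as support. By class the rises were 22 tRNA genes, 20 snoRNAs, 10 piRNA clusters, 10 microRNA hairpins, 8 mature microRNAs, 5 snRNAs and 5 RNAs typed misc_RNA. The calls rest on few libraries. Without any 1 of wt NS replicate 1, wt S replicate 1, wt S replicate 2, Eµ-deficient NS or Eµ-deficient S no feature passed (330 to 425 features at an unadjusted p under 0.05 without the wt libraries, 380 without Eµ-deficient NS and 312 without Eµ-deficient S), and without wt NS replicate 2 the count was 364, of which 320 rose and 44 fell. First replicates alone gave 283 rises and 106 falls. With the replicate number as a block across conditions 0 passed as well (smallest adjusted p 0.0614, 413 at an unadjusted p under 0.05). All 82 kept their sign in each of these fits, and this dependence holds for each count of calls given below. DESeq2 called 243 features, 79 of them among the 82.

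**Figure D2:**
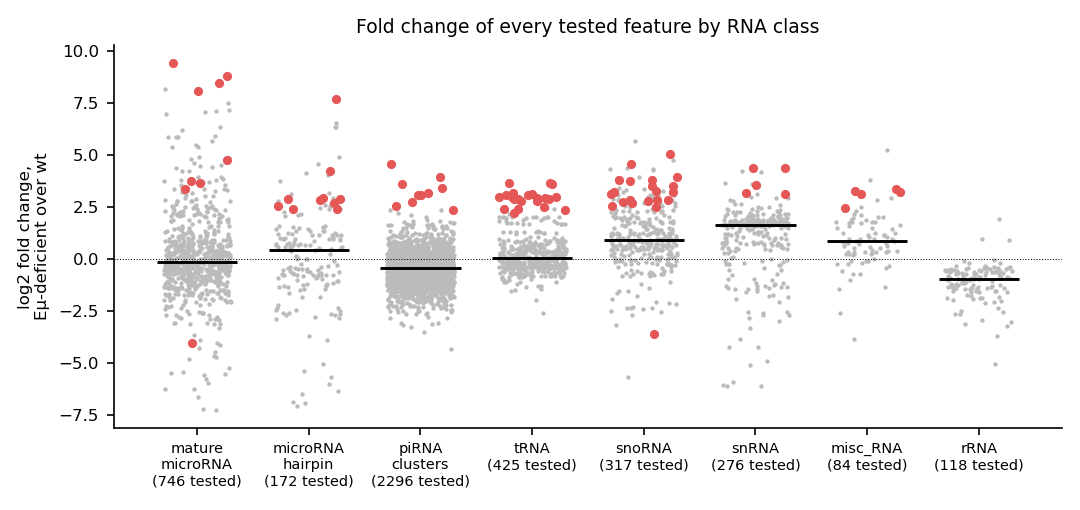
Log2 fold change of Eµ-deficient over wt cells (y axis) for each tested feature, by RNA class. Grey points did not pass, red points passed an adjusted p of 0.05, and black lines are class medians, which among the 8 classes shown run from -0.95 for rRNA (0.71 without wt NS replicate 2) to 1.62 for snRNA.

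The scale of the comparison was set by TMM, on which the median log2 fold change of all tested features was -0.25. DESeq2 size factors moved that median to -0.12 and total counts to -0.39. Fold changes are given on the TMM scale. Its factors were 0.61 and 1.35 for the resting and 1.11 and 1.28 for the stimulated wt libraries. They were 0.62 for the resting and 1.37 for the stimulated Eµ-deficient library, so levels compared between conditions depend on them. As shares of all counts of these 2 libraries, snoRNAs under 110 bases took 9.34% and 8.07%, and glycine tRNAs 2.51% and 5.30%.

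In the fit used here, short snoRNAs made up most of the snoRNAs that rose. Without a filter, 42 snoRNAs under 110 bases and 30 longer ones were called higher. Of 206 snoRNA rows under 110 bases, 126 were tested, and 18 rose and 1 fell (Snord123). Their median log2 fold change was 1.22, 105 of 126 were positive, and 73 lay above both wt libraries in each condition. By share, 14.3% were called higher and 57.9% lay above, against 1.80% and 13.2% of all tested features. Of the 126, 118 pass the filter on the wt libraries alone, with a median of 1.23, against -0.32 for the 3512 of all features that do. Of 489 longer snoRNA rows, 191 were tested, 2 rose, and the median was 0.74. Of the 191, 67 (35.1%) lay above both wt libraries in each condition. Among the 125 that pass the filter on the wt libraries alone, 40 lay above and the median was 0.65. Summed over all 206 short rows, normalised counts in CPM (count rates scaled to library size by TMM) were 46775.2 and 57016.9 in resting wt cells against 150010.0 in Eµ-deficient cells, and 37376.5 and 27775.2 in stimulated wt cells against 58828.3. By name, 10 of 50 tested short Snord genes rose (median 1.55), against 0 of 29 Snora genes (median 0.49, 3 at an unadjusted p under 0.05), which are of the H/ACA type. Of 18 scaRNAs, which guide the modification of spliceosomal RNA in Cajal bodies, 2 rose. These 2, Gm25443 and Scarna17, share at least 20 bases, so their reads may not be separable.

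Snord72 had the largest rise of the snoRNAs that passed. It stood at 128 and 80.6 CPM in resting and 36.2 and 35.1 CPM in stimulated wt cells, and at 4424 and 884 CPM in the resting and stimulated Eµ-deficient library. Each Eµ-deficient value was far above both wt values of its condition. The log2 fold change was 5.04, with an SE of 0.53 and an adjusted p of 0.00886. Gm24123 stood at 42.1, 35.2, 10.9 and 10.9 CPM in wt cells and at 983 and 245 CPM in Eµ-deficient cells (4.58, SE 0.48, adjusted p 0.00886). It shares at least 20 bases with Gm23201 in the host gene Zfas1, which rose too (3.29), so reads of this pair may not be separable.

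Snord4a, which guides methylation of ribosomal RNA, stood at 61.2, 59.9, 15.6 and 15.9 CPM in wt cells and at 837 and 228 CPM in Eµ-deficient cells (log2 fold change 3.82, SE 0.46, adjusted p 0.0159). Snord80, named after its values were seen because it had the highest level of the called snoRNAs in Eµ-deficient cells, went from 372, 556, 135 and 266 CPM to 7495 and 2390.0 CPM (3.80, SE 0.54, adjusted p 0.0247). In these 4 snoRNAs the wt level was lower after LPS, and the Eµ-deficient level was lower after LPS as well, which was not tested. The other called snoRNAs lay between 2.49 and 3.95 on the log2 scale and sit in introns or exons of genes such as Wdr43, Sf3b3, Tsr1, Gnl3, Rabggtb, Eif4g2, Ddx39b and Tnpo2, except Gm25443, Gm25802 and Scarna17, which have no annotated host gene. Snord123 ran the other way, at 7.07, 20.04, 6.41 and 2.84 CPM in wt cells and 1.31 and 0.281 CPM in Eµ-deficient cells (-3.64, SE 0.75, adjusted p 0.0495), on 11 and 7 counts. It was not called with total count scaling. TGATGA was present in 61.1% of the 18 short snoRNAs that rose and in 62.2% of the 119 tested short ones with a sequence, and CTGA in 94.4% and 93.3%. Long snoRNAs held them in 13.7% and 57.1%. The short snoRNAs that rose thus held these letters about as often as the short ones tested.

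Rises in piRNA clusters were few and lay mostly over snoRNA host genes. Here 10 of 2296 tested clusters rose, and 7 of these 10 are among the 40 clusters that hold an annotated snoRNA gene. The clusters with a snoRNA had a median log2 fold change of 0.78, and 21 of 40 lay above both wt libraries in each condition. The other 2256 tested clusters had 3 rises and a median of -0.46, and 117 lay above and 623 below. At an unadjusted p under 0.05 (edgeR), 20 of them were higher and 111 lower. Of all tested features, 1.80% were called higher, 13.2% lay above and 16.9% below. The 93 snoRNA genes inside clusters have no row of their own in the table, so counts in these intervals can come from them, which was not tested. All clusters are listed on the minus strand, whatever the strand of the genes inside.

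The cluster with the largest rise covers Rpl13, a ribosomal protein gene, and Snord68 (chr8:123099106-123106891). It stood at 737, 779, 488 and 280.4 CPM in wt cells and at 27681 and 5553 CPM in Eµ-deficient cells, which is 4.57 on the log2 scale (SE 0.59, adjusted p 0.0178). The others with a snoRNA cover Rpl7a, Rps12, Rack1, Rpl5, Ncl and Atp5b, and rose by 2.35 to 3.399 on the log2 scale. A pair of large rises came from clusters without an annotated snoRNA. These cover Kdm1a and Luzp1 (chr4:136538204-136552912, 3.93, SE 0.50, adjusted p 0.0178) and Rab7 and H1fx (chr6:87940020-88002030, 3.60, SE 0.52, adjusted p 0.0247). The first stood at 991, 743, 432 and 418 CPM in wt cells against 11487 and 7424 CPM. The second stood at 2579, 1649, 1130 and 959 CPM against 22591 and 14259 CPM. In all 3 leading clusters the groups were separate in both conditions.

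**Figure D3:**
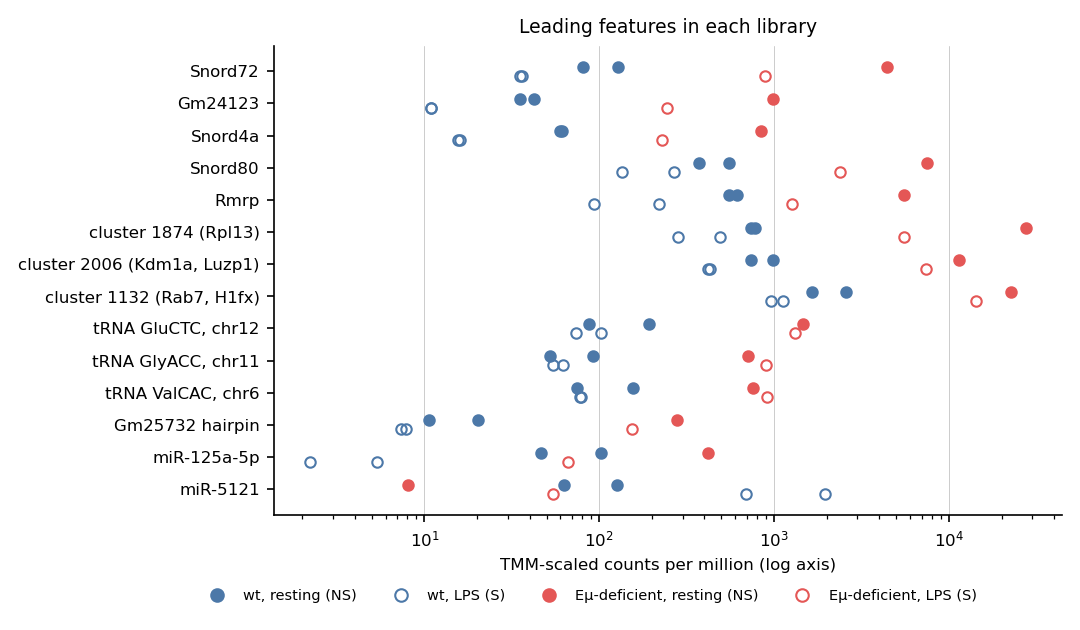
TMM-scaled CPM (log axis) of 14 features in each of the 6 libraries. Blue, wt, red, Eµ-deficient, filled, resting, open, LPS-stimulated. In each of the first 13 rows the red point lies to the right of the blue points of its condition, and for miR-5121 to the left.

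Other structural RNAs rose in small numbers. Rmrp, the RNA of the RNase MRP enzyme that processes ribosomal RNA precursors, stood at 550 and 616 CPM in resting and 219 and 93.3 CPM in stimulated wt cells, against 5548 and 1269 CPM in Eµ-deficient cells (log2 fold change 3.14, SE 0.53, adjusted p 0.0284). The unnamed misc_RNA ENSMUST00000157750 at chr10:4567974-4568213 rose by 3.35 (SE 0.56, adjusted p 0.0284), from 375, 267, 113 and 41.8 CPM to 3871 and 662 CPM. Gm26168 and Gm22508 rose by 3.21 and 3.26 and share at least 20 bases with Rny1, a Y RNA that binds the Ro protein, whose own row had 2.03 (adjusted p 0.0697). Gm25403 rose by 2.46 and shares sequence with the vault RNA Vaultrc5 (1.99, adjusted p 0.136).

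Of the 5 snRNAs that rose, 3 pass the filter on the wt libraries alone, and all 5 share sequence with other rows. Gm25150 (4.39, SE 0.90, adjusted p 0.0487) shares it with Rnu7, the U7 RNA of histone mRNA 3′ end processing (3.64, adjusted p 0.178), and with Gm23763 (4.24, adjusted p 0.0791). Their wt NS replicate 2 value was 0.213 CPM each, against 6.09 to 14.9 CPM in wt NS replicate 1. Gm24871 rose by 3.17 (SE 0.53, adjusted p 0.0284) from 13.4, 19.0, 18.2 and 7.69 CPM to 173 and 96.1 CPM, and shares 20 bases or more with 4 other tested snRNA rows. The snRNA median of 1.62 over 276 rows came with few counts, as only 37 rows pass the filter on the wt libraries alone, with a median of 0.38, and without the stimulated Eµ-deficient library the median of all tested snRNA rows was -0.02. The misc_RNA median of 0.88 likewise became -0.76 without that library. Of 118 rRNA rows 0 passed by edgeR (2 at an unadjusted p under 0.05, and 1 by DESeq2), and the abundant ones, Gm24601 (-1.17, adjusted p 0.723) and n-R5-8s1 (-1.28, adjusted p 0.741), had overlapping groups. The rRNA median of -0.95 turned to 0.71 without wt NS replicate 2 and to 0.34 without Eµ-deficient NS.

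The tRNA genes that rose belonged to few amino acids. Valine tRNAs gave 11 of 21 tested, glycine 6 of 29, glutamate 2 of 20, aspartate 2 of 16 and alanine 1 of 37, and by edgeR no gene of another amino acid passed. These counts depended on the scaling and the tool, as total count scaling left 10 valine and 1 glycine genes and no others, while DESeq2 called 60 tRNA genes, of which 15 were for valine, 27 for glycine, 12 for glutamate, 2 for aspartate and 4 for others. The median log2 fold change was 2.78 for valine, 2.01 for glutamate and 1.83 for glycine, against 0.04 over all 425 tRNA rows (-0.12 with total count scaling). For glycine 27 of 29 rows lay above both wt libraries in each condition and for glutamate 17 of 20. Of all tested features, 1.80% were called higher and 13.2% lay above. Valine split within itself, as 15 of 21 rows lay above and the other 6 had values of -0.39 to -0.02. By anticodon and by edgeR, 7 of 11 ValCAC, 4 of 7 ValAAC and 0 of 3 ValTAC genes passed, and among glycine genes 4 of 7 GlyCCC, 1 of 14 GlyGCC and the single GlyACC.

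Summed over all 22 valine rows, wt cells had 3298, 1769, 2281 and 2194 CPM and Eµ-deficient cells 11070.3 at rest and 13715 after LPS. The glycine sum went from 11198, 12089, 8723 and 11556 CPM to 40300 and 38617 CPM. Both sums were above every wt library, and in Eµ-deficient cells neither had the much lower level after LPS that Snord72 had. The single genes with the largest rises were GluCTC at chr7:99543900-99543971 (3.67, SE 0.54) and at chr12:42415075-42415146 (3.65, SE 0.54), and GlyACC at chr11:48823728-48823801 (3.62, SE 0.51), each at an adjusted p of 0.0247. The GluCTC gene on chromosome 12 stood at 86.9, 193, 102 and 74.1 CPM in wt cells and at 1468 and 1315 CPM in Eµ-deficient cells. Copies of a tRNA gene are near-identical, and the 22 called rows made 18 groups when rows of 1 anticodon with counts within 2% of each other in every library were counted once. Across anticodons, the 11 called valine rows had 4712 to 7297 counts in the resting and 20855 to 24545 in the stimulated Eµ-deficient library. The same reads may thus stand in several rows, so that counts of genes and sums over rows can hold them more than once, which was not tested.

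**Figure D4:**
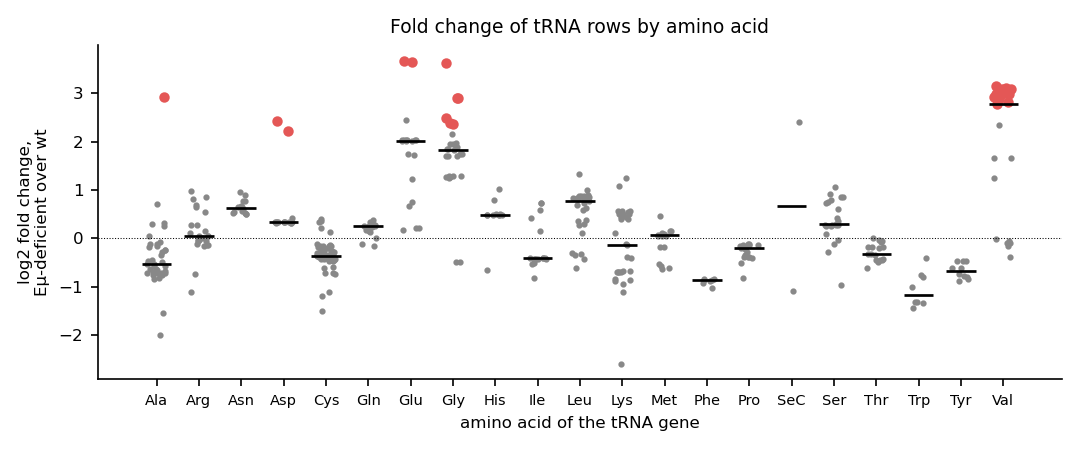
Log2 fold change of Eµ-deficient over wt cells for each tested tRNA gene (points), by amino acid, with medians (lines). Red points passed an adjusted p of 0.05. The medians of Val (2.78), Glu (2.01) and Gly (1.83) lie above those of all other amino acids.

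Of the 10 microRNA hairpin rows that rose, 7 carry the same 51 bases, which is why they are described as 1 signal. They lie on 6 chromosomes, and the shared stretch, from GENCODE M21, is printed without capitals because no part of it was singled out.
Shared stretch: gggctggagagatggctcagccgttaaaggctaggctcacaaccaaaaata
Each of the 7 had 1.94 to 6.82 CPM in the 4 wt libraries and 16.9 to 49.3 CPM in the Eµ-deficient libraries, with log2 fold changes of 2.39 to 2.92. Altogether, 22 hairpin rows share at least 20 bases with them, 18 of these were tested and 16 of the 18 were positive. The mature miR-690, which shares sequence too, had -1.19 (adjusted p 0.674) at 2.77 CPM or less. Since reads of this stretch fit many places, the rows cannot be told apart. With total count scaling, 3 microRNA hairpin rows in all were called higher.

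The other 3 hairpins do not carry this stretch. Mir142b rose by 2.84 (SE 0.55, adjusted p 0.0406), from 8.59, 4.48, 12.97 and 5.27 CPM to 58.4 and 51.5 CPM. This row spans 64 bases on the plus strand and holds both miR-142a arms, whereas the GENCODE sequence of that name has 115 bases. The mature miR-142b, on the minus strand, had -1.12 (edgeR, adjusted p 0.722). The mature arms of the locus, which is active across blood cells, did not pass, at -0.996 for miR-142a-5p (adjusted p 0.760) and -0.80 for miR-142a-3p (adjusted p 0.801). Mir451a had 5.76 CPM in wt NS replicate 1 and 0 in the other wt libraries, against 502 CPM in resting and 9.68 CPM in stimulated Eµ-deficient cells. After LPS that is at least 29.5-fold higher than a floor of 3 counts per wt library. Of the 10 called hairpins, 9 pass the filter on the wt libraries alone. Mir451a entered the test only with the Eµ-deficient libraries, so its adjusted p (edgeR, 0.0272) is not read as support. The mature miR-451a within it stood at 3601, 132, 177 and 38.4 CPM in wt cells. In Eµ-deficient cells it stood at 5182 and 1136 CPM (edgeR, adjusted p 0.437). Gm25732 at chr4:139338206-139338265 stood at 10.7, 20.3, 7.30 and 7.83 CPM in wt cells and at 277 and 153 CPM in Eµ-deficient cells (4.25, SE 0.50, adjusted p 0.0159).

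Among mature microRNAs away from chromosome 12, miR-125a-5p was the 1 that rose by edgeR, and DESeq2 called 31 mature microRNAs higher in all, against 8 by edgeR. MiR-125a-5p stood at 46.6 and 103 CPM in resting and at 5.37 and 2.22 CPM in stimulated wt cells, against 417 and 65.9 CPM in Eµ-deficient cells (log2 fold change 3.37, SE 0.65, adjusted p 0.0402). Its 4 relatives by seed or cluster did not pass in this fit. Other settings of edgeR called 3 of the 5 (DESeq2 size factors) or 4 of the 5 (no filter, a minimum of 10 CPM, the microRNA class alone and all 10 libraries), and DESeq2 called 4. In the fit used here, miR-100-5p had 3.06 (adjusted p 0.0626), miR-99a-5p 2.49 (0.0891), miR-125b-5p 2.40 (0.0626) and miR-99b-5p 1.48 (0.327). All 5 lay above both wt libraries in each condition, against 13.2% of all tested features. Summed over the 5, wt cells had 418, 313, 63.3 and 39.4 CPM and Eµ-deficient cells 1609.8 and 388 CPM, so that the sum fell after LPS in both genotypes.

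MiR-5121 was the microRNA that fell. It lies at chr7:45126925-45126945 on the minus strand within the locus of Rpl13a, and stood at 127 and 62.7 CPM in resting and at 1961 and 694 CPM in stimulated wt cells, against 8.08 and 54.1 CPM in Eµ-deficient cells (-4.06, SE 0.79, adjusted p 0.0406). It was higher after LPS in both genotypes. On a common scale of all 10 libraries it stood at 13.4 and 6.03 CPM in resting and at 207 and 79.1 CPM in stimulated 3′RR-deficient cells, so that the wt libraries had the highest level of the 3 genotypes in each condition.

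Of the features within 10 Mb of the Igh constant genes (chr12:113254830-113422730), 69 of 146 were tested and 7 rose, against 1.80% of all features. Of the 69, 29 pass the filter on the wt libraries alone, with 2 of the 7 among them and a median of -0.42. All 7 are microRNAs between Dlk1 and Dio3, an imprinted interval whose microRNAs are known from embryonic and nerve tissue. The interval holds 86 microRNA rows. Summed over all 86, wt cells had 19.5, 22.4, 20.6 and 16.4 CPM (179, 105, 138 and 236 counts) and Eµ-deficient cells 186 and 123 CPM (1565 and 3056 counts). Both Eµ-deficient libraries were thus above all wt libraries at rest and after LPS, at levels that are low beside those of typical B-cell microRNAs. On the common scale of all 10 libraries, the 3′RR-deficient cells had 31.4, 44.3, 14.3 and 5.39 CPM.

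MiR-409-3p had 0 to 1.04 CPM in the wt libraries and 17.8 and 12.01 CPM in Eµ-deficient cells (4.77, SE 0.74, adjusted p 0.0257). MiR-369-3p had 0 to 1.94 CPM against 18.9 and 15.0 CPM (3.77, SE 0.76, adjusted p 0.0470), and miR-127-3p 0 to 1.85 CPM against 18.7 and 8.47 CPM (3.67, SE 0.75, adjusted p 0.0489). For the other 4 no wt library had more than 1 count, so that only a bound can be given against 3 counts per library. MiR-487b-3p was at least 26.3-fold higher at rest and at least 27.5-fold higher after LPS, on 107 and 224 counts. The bounds were 20.4- and 18.9-fold for miR-493-5p, 10.8- and 14.7-fold for miR-654-3p and 11.8- and 8.46-fold for miR-370-3p. Of the 7, 2 pass the filter on the wt libraries alone, and the other 5 entered the test only with the Eµ-deficient libraries, so that their adjusted p-values are not read as support.

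Of the 86 rows, 39 were tested, and 33 of these do not pass the filter on the wt libraries alone. A row that passed through an Eµ-deficient library had to be higher there, so no count over the 39 is read as a result. Of the 6 that pass on the wt libraries alone, 2 were called and 4 lay above both wt libraries in each condition. Among all features that pass so, 2.11% were called and 12.6% lay above. The median log2 fold change of the 6 was 2.10. A few rows were not higher, such as miR-541-5p (-0.61, adjusted p 0.851), miR-434-3p (-1.26, adjusted p 0.719) and miR-668-3p (-3.10, adjusted p 0.614). Outside Dlk1-Dio3, 29 rows within the window were tested, 0 passed by edgeR and 0 had an unadjusted p under 0.05, with a median of -0.42. The nearest rows to Ighm on the side of the J segments are the hairpins Gm25747, Gm24022 and Gm22175 (chr12:113424645-113425227), with 0 counts each in resting Eµ-deficient cells, 26, 12 and 30 in stimulated Eµ-deficient cells and 0 to 17 in wt libraries.

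**Figure D5:**
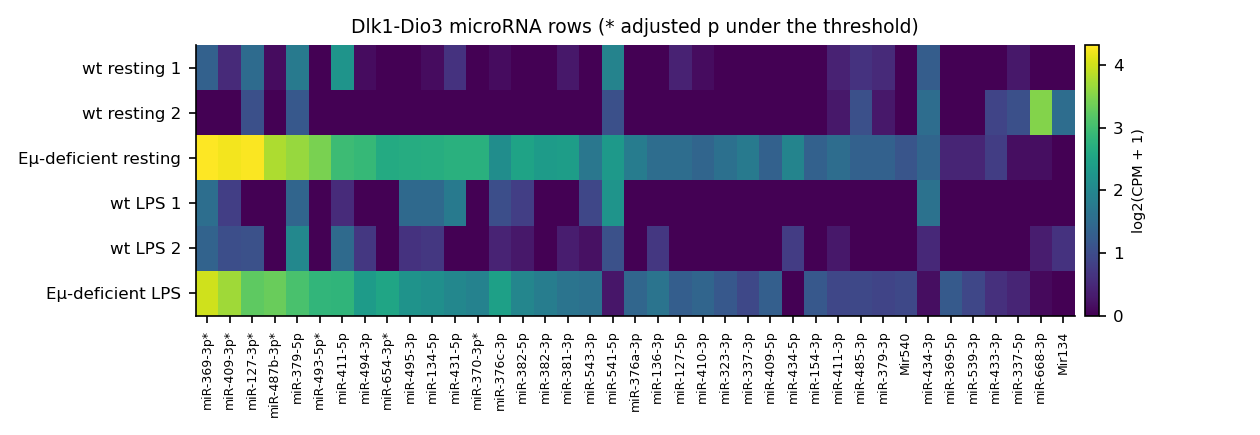
Level, as log2(CPM + 1), of the 39 tested Dlk1-Dio3 microRNA rows (columns, ordered by their mean in the Eµ-deficient libraries) in each of the 6 libraries (rows). Asterisks mark the 7 called microRNAs. Most columns are bright in both Eµ-deficient rows and dark in the wt rows, a contrast partly set by the filter, since 33 of the 39 rows do not pass on the wt libraries alone, and miR-668-3p is bright in wt resting replicate 2 alone.

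Typical lymphocyte microRNAs were abundant in both genotypes, and their calls were near the background of all features (1.80% called higher and 13.2% above both wt libraries in each condition). Of 20 such microRNAs, 0 passed by edgeR (1 by DESeq2), 2 had an unadjusted p under 0.05, and 3 lay above both wt libraries in each condition. The median log2 fold change was 0.08, and it was 0.74 without wt NS replicate 1 and -0.69 without Eµ-deficient NS. MiR-150-5p, which marks mature lymphocytes, stood at 38614 and 36065 CPM in resting and 6752 and 3257 CPM in stimulated wt cells, against 24768 and 4155 CPM in Eµ-deficient cells (-0.43, SE 0.57, adjusted p 0.796). MiR-155-5p, which is induced upon B-cell activation, stood at 6027 and 4721 CPM at rest and 19620.4 and 29803 CPM after LPS, against 9277 and 46221 CPM (0.85, SE 0.52, adjusted p 0.569). MiR-181a-5p had -0.07 (SE 0.56, adjusted p 0.963) and turned positive with DESeq2 size factors, though not with total count scaling. MiR-21a-5p, an abundant microRNA of activated cells, had -0.55 (SE 1.03, adjusted p 0.844). 

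The families of dividing and of resting cells were likewise without a call in this fit or by DESeq2, while first replicates alone gave 3 lower calls in the miR-17~92 family and 1 in miR-15/16. The medians were -0.39 for 16 members of the miR-17~92 family, -0.17 for 10 let-7 members, -0.52 for 6 members of miR-15/16, -0.20 for 8 of miR-29 and miR-30, -0.99 for 5 of miR-26 and miR-101, -0.27 for 5 of miR-23/27/24 and 0.09 for the 3 of the miR-183 cluster. Without wt NS replicate 1 the medians were 0.41 for miR-17~92, 0.14 for let-7, 0.07 for miR-15/16, 0.57 for miR-29 and miR-30, 0.74 for miR-26 and miR-101 and 0.35 for miR-23/27/24, so that the direction of these 6 medians turned. In these 7 lists together 1 member had an unadjusted p under 0.05.

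MicroRNAs of other cells of the spleen gave no call in the edgeR fit used here, and gave some in others. Within the microRNA class alone, edgeR called 4 erythroid, 1 myeloid and 2 stromal microRNAs, and without a filter 4, 1 and 6. Of 7 erythroid microRNAs 0 passed by edgeR (2 by DESeq2), and 4 had an unadjusted p under 0.05 and lay above both wt libraries in each condition. Among all tested features, 13.2% lay above in this way. None of the 7 was at 0 in any library. Their sum was 6133 and 3135 CPM in resting and 351 and 101 CPM in stimulated wt cells, against 14534 and 2352 CPM in Eµ-deficient cells. MiR-486a-5p had 2.77 (adjusted p 0.101), with near-equal counts for its copy miR-486b-5p, and miR-451a had 2.55 (adjusted p 0.437). Both myeloid arms of miR-223 lay above wt in each condition, with a sum of 1927, 307, 105 and 37.9 CPM against 5775 and 235 CPM. None of its values was 0, and 0 passed by edgeR or DESeq2 over all features past the filter (2 at an unadjusted p under 0.05, miR-223-3p 2.07, adjusted p 0.309). Of 11 tested stromal and endothelial microRNAs 0 passed by edgeR (3 by DESeq2) and 5 had an unadjusted p under 0.05, among them miR-199a-3p (3.44, adjusted p 0.138) and miR-214-3p (4.44, adjusted p 0.127). With 1 library left out, these ranged from 1.51 to 4.87 and from 2.13 to 9.42. Of the 11, 8 pass the filter on the wt libraries alone, with a median of 1.27 and 3 at an unadjusted p under 0.05 (edgeR). The count of 5 is therefore not read as a result. The sum over the list, carried mostly by miR-10a-5p and miR-10b-5p, did not separate the groups at rest (4882 and 889 CPM in wt cells against 4219 CPM) and was 858 and 871 CPM against 982 CPM after LPS. MiR-199a-5p was at 0 in 3 wt libraries and miR-214-3p in both stimulated ones. MiR-126a-3p, an endothelial marker, had -0.88 (adjusted p 0.742). Of 8 epithelial and 4 tested liver, muscle and nerve microRNAs 0 passed by edgeR or DESeq2 and 0 had an unadjusted p under 0.05, with medians of -0.43 and 0.08. The part of other cells in the rises of Mir451a, the miR-99/100 and miR-125 families and the Dlk1-Dio3 microRNAs was not tested.

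A difference in genotype effect between resting and stimulated cells could hardly be tested, as each condition has 1 Eµ-deficient library. The interaction term gave no call (edgeR, 0 of 4438, smallest adjusted p 1.00, 113 at an unadjusted p under 0.05, and 0 by DESeq2 with 95 at an unadjusted p under 0.05). Without wt NS replicate 1 the count was 238, and it was 0 without each other wt library. Over the 80 features that rose, the median log2 ratio was 3.20 at rest and 3.21 after LPS. By class the ratios lay at 3.55 at rest and 2.87 after LPS for the 20 snoRNAs, of which 15 had the larger ratio at rest, and at 2.69 and 3.31 for the 22 tRNA genes, of which 2 did. These ratios have 1 Eµ-deficient library each and were not tested.

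The 3′RR-deficient libraries lack the other enhancer region of Igh, and are set beside the others on a common scale of all 10 libraries for Snord72, the Rpl13 cluster and the GlyACC tRNA. For these 3 their values lay below both Eµ-deficient values, while for miR-5121, given above, they lay below the wt values of their condition at rest and after LPS. Snord72 had 32.4 to 193 CPM in the 4 3′RR-deficient libraries, against 33.9 to 120 CPM in wt and 4499 and 981 CPM in Eµ-deficient libraries. The Rpl13 cluster had 281 to 925 CPM, against 279 to 748 CPM in wt and 28150.0 and 6162 CPM in Eµ-deficient libraries. The GlyACC tRNA had 51.3 to 90.6 CPM, against 50.3 to 86.0 CPM and 717 and 993 CPM. In a fit of all 10 libraries with a term for each replicate number of a condition, which was added after the data were seen, 386 features passed for Eµ-deficient against wt cells. These comprised 312 rises and 74 falls, and all 82 features were among them, whereas the replicate block across conditions in the 6 libraries left 0.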

How the data were processed

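Small RNA of CD43- spleen cells was read by Illumina sequencing (75 nt reads) after 17 PCR cycles and selection of 140 to 160 nt products. The deposited values are raw read counts per feature, which the authors made, per the labels, with cutadapt 1.2.1 and Bowtie2 on mm10. The counting tool and the handling of reads with several places are not given in the sources used here, so rows of near-identical sequence cannot be separated. The study's methods name no test for these counts.

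Of the 10 libraries, 6 were fitted in edgeR 4.0.16 (R 4.3.3) with genotype and stimulation as additive terms, TMM scaling, filterByExpr by group and the quasi-likelihood F-test. P-values were adjusted by Benjamini-Hochberg over all 4438 tested features, SEs are the log2 fold change divided by the square root of F, and the fit has 3 residual degrees of freedom. A second fit added the interaction of both terms. Scripts were tested on simulated data. Alternatives were DESeq2 1.42.0, other scalings and filters, the microRNA class alone, all 10 libraries, first replicates, a replicate block and each library left out. Added after the data were seen was a fit with replicate blocks within conditions.

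Names come from GENCODE M21 (2589 of 2845 Ensembl rows matched) and sequences also from RefSeq (1093 of 1302 mature microRNAs matched). The text names, per direction and class, the called features with the largest change that had 100 CPM or more in a group and no overlap with wt in either condition (8 for microRNAs, 3 for each other class, and those with the smallest p where a class had fewer), the called features near Igh and members of the lists. Other named rows, such as Snord80, Snord123, Mir142b and rows that share sequence with a called one, were chosen after their values were seen. The members and lists were chosen with earlier results of these data known. The replicate numbers mark deviations shared within a condition but not across conditions, so the numbers were not taken to pair conditions. Precision is limited by the 3482540.0 to 18144016 counts per library, by 2 wt libraries per condition and by 1 Eµ-deficient library.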

Additional observations from a re-analysis of the deposited data

How the results depend on the processing

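The count of 82 features depended on the settings. It was 49 with total counts as library sizes, 100 with DESeq2 size factors, 97 with a minimum of 10 CPM, 266 without a filter, 243 by DESeq2, 32 within the microRNA class alone, 156 with all 10 libraries in the fit and 389 with first replicates only. With the replicate block across conditions 0 passed (413 at an unadjusted p under 0.05, smallest adjusted p 0.0614), and with the replicate block within each condition, added after the data were seen, 386. Leaving out 1 library gave 0 to 364. For the difference between conditions, leaving out 1 wt library gave 0 to 238 and the other scalings, filters, DESeq2, the microRNA class alone and all 10 libraries gave 0 each, while the blocks, first replicates and leaving out an Eµ-deficient library were not run for it. All 82 kept their sign under each alternative in which they were tested. The numbers were shared within conditions only (r = 0.64 and 0.28) and Eµ-deficient cells have number 1 alone, so the replicate block across conditions is not a paired test of genotype. The cause of these shifts was not tested.

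Some values that were not called changed sign. MiR-181a-5p was 0.0526 with DESeq2 size factors, 0.0857 without a filter, 0.0526 by DESeq2, 0.0281 within the microRNA class and 0.0919 with all 10 libraries. Gm24601 was 0.17 with first replicates and 0.50 with the added block. With 1 library left out, the ranges were -1.65 to 0.62 for Gm24601, -3.66 to 0.20 for n-R5-8s1, -1.06 to 1.42 for miR-142a-3p, -1.21 to 0.97 for miR-142a-5p, -0.26 to 0.23 for miR-181a-5p, -1.16 to 1.06 for miR-21a-5p and -2.26 to 0.19 for miR-126a-3p. Low counts limit the Dlk1-Dio3 and snRNA rows, of which 16 of 39 and 45 of 276 tested had 3 counts or fewer in each wt library. In a condition with 1 library left after leaving out another, the lone library is assumed to vary like the rest.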
